A study of Mus musculus with 4 samples.

Results

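In the poly(A) RNA of sham-operated mouse hearts, 667 loci were assembled antisense to the exons of annotated genes. They were chosen from the deposited transcript models as the loci that hold no UCSC model (a transcript of the UCSC gene set) and at least 1 transcript marked as overlapping a reference exon on the opposite strand. They were 667 of 35299 loci in all, and of 9221 loci without a UCSC model. Each was paired with the UCSC-model locus on the opposite strand that shared the most exon bases with it, named its partner here, and 609 of the 667 had such a partner.

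The study has 1 group of 4 biological replicates, Sham. The tissue is heart of C57BL/6J mice 12 weeks of age, collected 2 weeks after a sham operation from the site that would lie beside an infarct. No second treatment, time or genotype was compared. For replicate 4 the free-text description omits the word sham, while its title and treatment give it. The 4 libraries, headed 3RL, 7LR, 8R and 12RL in the count table, cannot be tied to replicate numbers, and whether 1 replicate is 1 animal is not given, so the spread between them may be partly technical. Values are normalised read counts, the reads per locus divided by 1 size factor per library. The libraries held from 108345923 to 160670654 reads at loci. Cardiomyocyte markers were high in all 4, with a mean of 1388903 for Actc1 and 376766 for Ryr2, and 17 of 19 markers of heart cell types were found among the loci. The blood marker Hba-a1 ran from 25307 in 3RL to 83406 in 8R, and its part in the results was not tested.

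Antisense transcripts lie on the strand opposite to a gene and can begin at the same promoter and run away from it (divergent), run into the end of the gene (convergent), or lie within it. Many are long noncoding RNAs, kept in the nucleus and present at low copy number, and some are known to act on the transcription of the gene beside them. In the heart, Hand2os1, which runs from the promoter of the transcription factor gene Hand2, and Mhrt, an antisense RNA of the myosin heavy chain genes, are known examples.

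The models carry no gene symbols. A UCSC or antisense transcript was given a gene name where its chromosome, strand and full series of intron and internal exon lengths equalled those of a GENCODE M21 transcript on GRCm38, so no coordinate was converted. In this way 522 of 592 distinct partners were named, 60 of them with more than 1 name because the locus merges neighbouring genes, and 78 of the 667 antisense loci were matched to a GENCODE gene. Of these 78, GENCODE types 38 as antisense, 11 as processed transcript, 11 as lincRNA, 8 as bidirectional promoter lncRNA and 10 as protein-coding. Other positions below are on mm9, the build of the deposited models.

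Shown here are the bases around the first splice of 6 loci, a stretch that lies outside the GENCODE exons of the partner. They have the most counts among the matched loci that GENCODE types as noncoding. Whether any of them encodes a protein was not tested. Each line gives, from GENCODE M21, the last 30 bases of exon 1 in lower case and the first 30 bases of exon 2 in capitals, 5' to 3'.
Ndufb1-ps (antisense to Cpsf2): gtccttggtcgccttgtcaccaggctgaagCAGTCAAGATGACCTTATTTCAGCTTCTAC
Hand2os1 (antisense to Hand2): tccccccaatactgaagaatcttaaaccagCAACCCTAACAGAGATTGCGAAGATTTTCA
Plet1os (antisense to Plet1): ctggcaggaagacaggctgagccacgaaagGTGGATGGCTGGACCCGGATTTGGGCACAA
Gm28651 (antisense to 3425401B19Rik): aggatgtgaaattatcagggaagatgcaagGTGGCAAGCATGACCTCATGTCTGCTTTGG
Gm45012 (antisense to Mogat2): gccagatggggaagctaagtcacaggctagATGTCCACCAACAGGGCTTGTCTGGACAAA
Gm45494 (antisense to Yap1): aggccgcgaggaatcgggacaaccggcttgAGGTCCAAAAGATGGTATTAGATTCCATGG
The bases before the start of the partner's gene, on the side to which a divergent antisense locus runs, are shown for 5 pairs on which the levels below turn, 2 with a high and 2 with a very low antisense level beside the partner, and Ulk4. They are promoters of the partners, and whether they act for the antisense transcripts was not tested. Partners poorer in CG, Myh6 among them, are not printed, and their values are given with the promoters below. Each is the 250 bases before the start of the partner's gene from RefSeq (GRCm38.p6), on the strand of that gene, with every CG in capitals.
Cpsf2 (+ strand, chr12:101975724-101975973, 24 CG): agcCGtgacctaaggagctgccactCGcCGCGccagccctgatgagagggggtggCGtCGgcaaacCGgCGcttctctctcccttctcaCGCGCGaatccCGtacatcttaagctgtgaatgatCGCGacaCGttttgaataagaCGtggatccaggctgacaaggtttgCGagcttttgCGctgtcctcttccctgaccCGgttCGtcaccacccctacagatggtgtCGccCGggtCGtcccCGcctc
Hand2 (+ strand, chr8:57320733-57320982, 15 CG): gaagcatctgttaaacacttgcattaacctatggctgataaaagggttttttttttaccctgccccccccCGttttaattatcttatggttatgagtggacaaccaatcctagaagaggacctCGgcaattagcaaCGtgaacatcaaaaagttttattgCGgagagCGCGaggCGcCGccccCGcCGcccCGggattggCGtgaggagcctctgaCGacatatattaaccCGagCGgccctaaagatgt
Ulk4 (- strand, chr9:121277173-121277422, 19 CG): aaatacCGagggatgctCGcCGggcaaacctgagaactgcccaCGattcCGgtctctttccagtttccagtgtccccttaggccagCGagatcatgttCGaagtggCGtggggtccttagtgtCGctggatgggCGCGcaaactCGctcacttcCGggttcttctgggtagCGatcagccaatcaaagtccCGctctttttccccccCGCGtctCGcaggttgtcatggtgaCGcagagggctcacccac
Tpm1 (- strand, chr9:67049214-67049463, 19 CG): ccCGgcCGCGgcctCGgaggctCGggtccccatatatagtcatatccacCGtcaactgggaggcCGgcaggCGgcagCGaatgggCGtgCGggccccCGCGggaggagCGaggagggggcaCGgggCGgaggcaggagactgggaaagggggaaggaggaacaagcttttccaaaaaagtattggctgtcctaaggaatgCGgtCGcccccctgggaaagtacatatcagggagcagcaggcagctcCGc
Fabp3 (+ strand, chr4:130308488-130308737, 17 CG): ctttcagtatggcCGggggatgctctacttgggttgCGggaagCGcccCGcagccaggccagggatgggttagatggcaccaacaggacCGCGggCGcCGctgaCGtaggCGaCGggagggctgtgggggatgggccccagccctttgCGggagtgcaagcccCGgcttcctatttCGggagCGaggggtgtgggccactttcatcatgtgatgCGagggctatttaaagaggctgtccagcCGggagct

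The antisense loci were short in exon number, and most met their partner at 1 end. Counted by the model with the most exons, 69 of the 667 had 1 exon, 373 had 2, 147 had 3, and 78 had 4 or more. The union of their exons had a median of 2554 bases, from 198 to 46262. They lay on chromosomes 1 to 19 and X, 350 on the plus strand and 317 on the minus strand. By the UCSC models of the partner, 347 (52.0%) were divergent, 167 (25.04%) convergent, 62 nested within the partner and 14 contained it. A further 19 shared only assembled exons of the partner locus, and 58 shared no exon base with an opposite UCSC-model locus although their spans crossed one. Divergent loci shared bases with a first exon of the partner in 343 of 347 pairs, and convergent loci with a last exon in 160 of 167. As divergent loci run past the partner's start and convergent ones past its end, these shares follow largely from the definitions. All these arrangements use the strand of the deposited models. Among intergenic models, 7267 of 8048 with 1 exon (90.3%) had no strand, against 0 of 3385 with more exons. How the 69 antisense loci of 1 exon were given a strand was not tested.

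The overlap with UCSC exons rarely passed the read length of 100 bases. Over the 590 pairs that shared a UCSC exon base, the overlap had a median of 97 bases and a maximum of 309. It was exactly 100 bases in 129 pairs (21.9%), 81 to 99 in 234 (39.7%), 1 to 80 in 156 (26.4%) and over 100 in 71 (12.0%), of which 12 shared up to 120. The fall beyond 100 bases was present in both main arrangements: 331 of 347 divergent and 155 of 167 convergent pairs shared 100 bases or fewer. Of the 62 nested pairs, 37 shared more than 100 bases. Divergent antisense loci began inside the partner by 1 to 100 bases in 274 of 347 pairs, and by 81 to 100 bases in 211. Whether the read length set these ends was not tested. When assembled models of the partner locus were added to its UCSC models, the median overlap was 996 bases and the longest 40647.

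**Figure D1:**
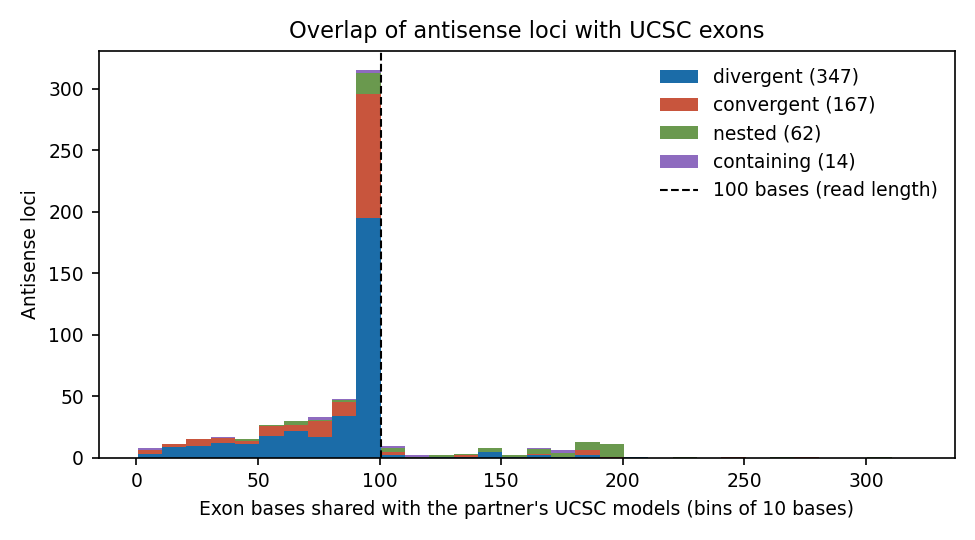
Exon bases shared between an antisense locus and the UCSC models of its partner (x axis, bins of 10 bases) against the number of antisense loci (y axis), for 590 pairs coloured by arrangement. The bars pile up just below the dashed line at 100 bases, and 71 pairs lie beyond it.

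An antisense locus had counts only where some of its exon bases lay outside every other locus. All exon bases of 173 loci were shared with other loci, and all 173 were at 0 in all 4 libraries. The same was seen for 136 of 136 UCSC-model loci wholly covered by exons of the opposite strand. A 0 at such a locus cannot be read as absence of RNA. None of the 173 was covered by the UCSC models of its partner alone, and they had a median of 2585 bases outside those models, so the sharing was with assembled exons. Of 82 loci with 1 to 99 unshared bases, 30 were at 0 and 8 had a mean of 10 or more. The number with a mean of 10 or more was 29 of 106 from 100 to under 500 unshared bases, 88 of 134 from 500 to under 2000, and 168 of 172 (97.7%) from 2000 upward. The median of the mean counts rose over these ranges from 0.394 to 3.14, 17.1 and 117. Whether the libraries kept strand is not given in the sources used here, so reads of a pair cannot be told apart at shared bases. The orientation of an antisense locus is that of its deposited model, and it was not checked against reads.

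**Figure D2:**
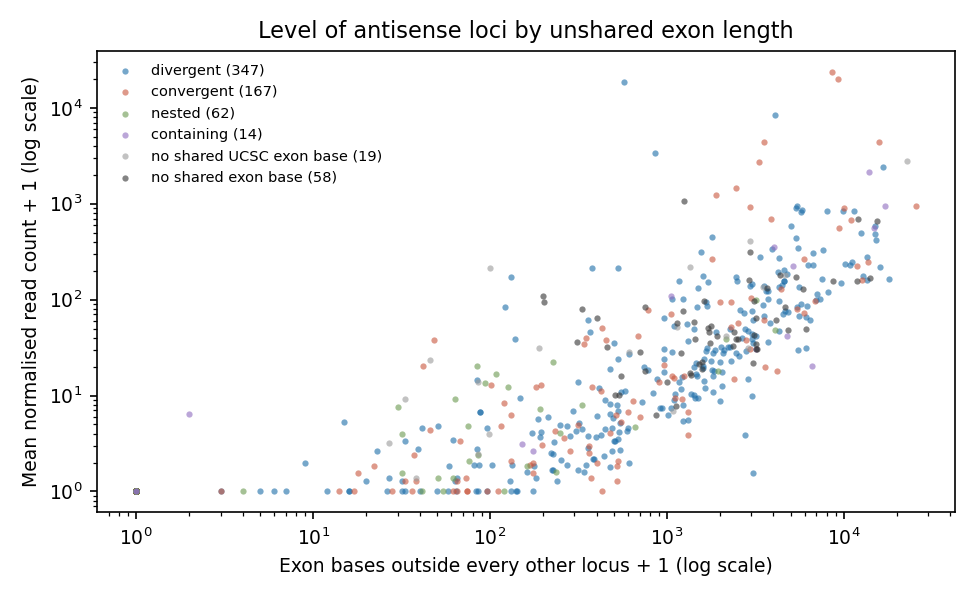
Exon bases of each of the 667 antisense loci that lie outside every other locus (x axis, log scale, 1 added) against its mean normalised read count over 4 libraries (y axis, log scale, 1 added), coloured by arrangement. The 173 loci with no unshared base sit together at the lower left corner at a count of 0.

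Most antisense loci did not reach a mean of 10, among them the 173 with no unshared base, and a handful held most of the counts. A mean of 10 or more was found at 293 of 667 antisense loci (43.9%), against 53.6% of all loci, 57.3% of loci with a UCSC model and 42.8% of the other loci without one. Listed at 0 in all libraries were 210 (31.5%), against 21.8%, 28.1% and 1.95% of the same 3 sets. Of these 210, 173 had no unshared base, where a 0 cannot be read as absence of RNA. Both shares of antisense loci, 43.9% and 31.5%, include those 173. Above 0 in all 4 libraries were 373. A mean of 100 or more was found at 109 and of 1000 or more at 14. The antisense loci together took 0.0792% ± 0.0055 of all counts (SD, n = 4), from 0.0715% to 0.0834%, and 13.8% ± 2.99 of the counts at loci without a UCSC model. The 5 highest took 55.5% ± 2.52 of the antisense counts.

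The highest was the 5-exon locus at chr18:80480572-80563459, convergent with Slc66a2. Its normalised counts were 20981 (3RL), 23135 (7LR), 22269 (8R) and 28752 (12RL). The partner had 4392, 5095, 4308 and 5093 in the same order, below the antisense locus in every library.

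The second was the 2-exon locus at chr13:12248458-12279185, convergent with Mtr, which encodes methionine synthase. It had 17653 (3RL), 19419 (7LR), 24356 (8R) and 18591 (12RL), and Mtr had 8791, 11545, 10863 and 11469. Per kb of exon the 2 were close, with a log2 ratio of -0.23 ± 0.22 (SD, n = 4), and the antisense locus was higher in 1 of 4 libraries.

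The third, at chr12:103206337-103214305, matched Ndufb1-ps, named after a subunit of respiratory complex I and typed by GENCODE as a bidirectional promoter lncRNA, and ran divergently from Cpsf2, a subunit of the complex that cleaves mRNA 3' ends. It had 16616 (3RL), 15581 (7LR), 23977 (8R) and 17925 (12RL), against 4236, 4059, 4135 and 4520 for Cpsf2. Library 8R stood highest for Ndufb1-ps while Cpsf2 varied little. With 665 exon bases it was also the highest antisense locus per kb, at 27857. Whether Ndufb1-ps encodes a protein, and whether near-identical copies share reads with it, was not tested.

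The fourth matched Hand2os1, at chr8:59782978-59799866 with up to 6 exons, and shared 87 bases with Hand2. Hand2os1 had 6957 (3RL), 8445 (7LR), 9269 (8R) and 8617 (12RL). Hand2 had 3174, 4550, 6553 and 4828, so both were lowest in 3RL and highest in 8R. The log2 ratio per kb was -0.07 ± 0.26 (SD, n = 4), with the antisense locus higher in 1 of 4 libraries. Over the 130 pairs with both means of 50 or more, 47 (36.2%) had the same highest library on both sides.

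The fifth was a single exon of 3632 bases at chr13:99608503-99612134, convergent with the nuclear import receptor gene Tnpo1. Its strand is that of the deposited model, which holds no splice, and was not tested. The locus was steady over the libraries at 4437 (3RL), 4558 (7LR), 4541 (8R) and 4151 (12RL), a coefficient of variation (CV, the SD as a percentage of the mean) of 4.25%. Per kb the 2-exon locus at chr13:58228526-58229737, whose partner has no name here, ranked second at 3600.1, with 2750.2 (3RL), 2893 (7LR), 3912 (8R) and 4054 (12RL).

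Further loci matched to GENCODE genes, chosen after their values were seen, were lower than these. Plet1os had 1072 (3RL), 999.9 (7LR), 1254 (8R) and 930.2 (12RL). Gm28651 had 809 (3RL), 940 (7LR), 849 (8R) and 873 (12RL). Gm45494, which runs divergently from Yap1, the effector of the Hippo pathway, had 460, 383, 512 and 405 in the order 3RL, 7LR, 8R and 12RL, against a mean of 10314 ± 340 for Yap1 (SD, n = 4). A locus matched to the protein-coding gene Tada2b, convergent with Grpel1, had 2685, 2723, 2643 and 2911 in the same order.

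**Figure D3:**
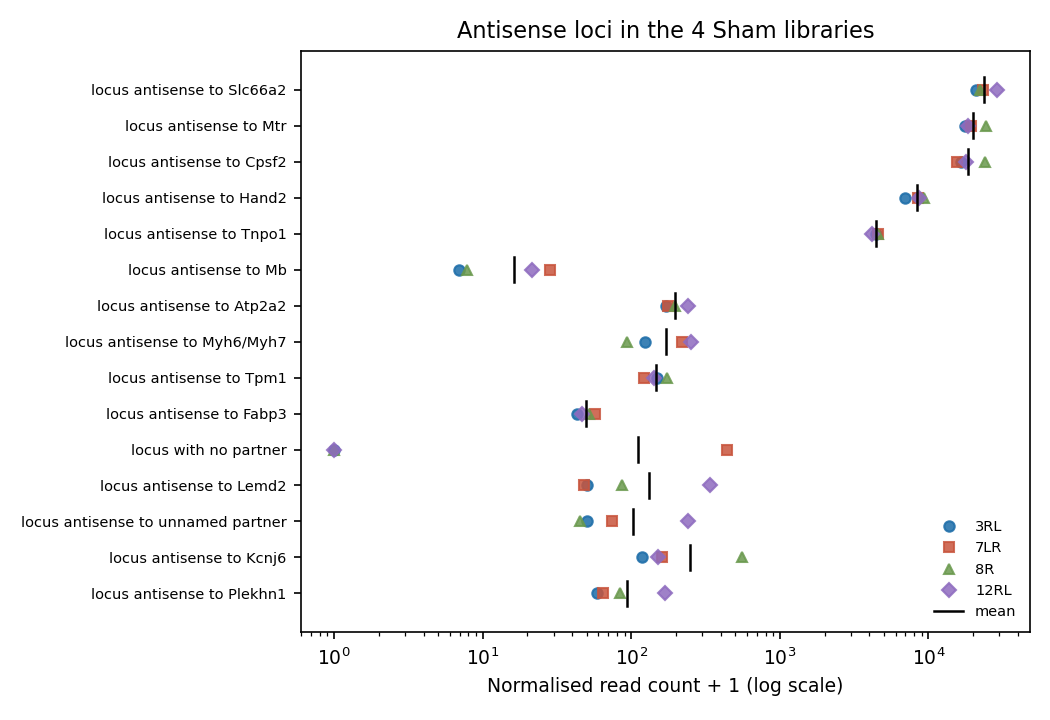
Normalised read counts (x axis, log scale, 1 added) of antisense loci (rows) in the 4 Sham libraries (points) with their mean (black bar): the 5 highest by count, the 5 lowest beside their partner, and the 5 with the largest CV. The 5 lowest are from the set of pairs ranked by ratio in the text. The first 5 rows stay above 4000 in every library. The locus with no partner is at 437 in 7LR and at 0 in the others.

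Antisense loci lay far below their partners in level. Among the 239 pairs whose antisense locus had a mean of 10 or more, the median log2 ratio of antisense locus to partner, per kb of exon, was -5.00 (3RL), -4.75 (7LR), -4.87 (8R) and -4.81 (12RL). Its mean was -4.86 ± 0.10 (SD, n = 4), below 0 in 4 of 4 libraries (exact two-sided sign-flip permutation test over the libraries, p = 0.13, the smallest that 4 allow). Per kb of unshared exon it was -4.71 ± 0.19 over 222 pairs with at least 200 unshared bases on each side. The antisense locus was the higher in all 4 libraries in 14 of the 239 pairs. Across the 232 pairs with both means of 10 or more, the levels of the 2 sides per kb had a Spearman rho of 0.193, given as a description, since the pairs share libraries and differ in length.

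Convergent antisense loci were nearer to their partners than divergent ones. The median log2 ratio per kb was -3.54 ± 0.22 over 52 convergent pairs and -5.34 ± 0.14 over 156 divergent pairs (SD, n = 4). The difference of the medians was 1.62 (3RL), 1.89 (7LR), 1.91 (8R) and 1.77 (12RL), and 1.80 ± 0.13 on average (SD, n = 4; exact two-sided sign-flip permutation test, p = 0.13, the smallest that 4 libraries allow). Per kb of unshared exon it was 2.46 ± 0.13. Partners of convergent loci had a median count of 2832 and partners of divergent loci 5157, and the part of this gap in the difference was not tested. A single exon was found at 42 of all 167 convergent and 17 of all 347 divergent loci, and its part was not tested either. The 9 pairs whose antisense locus contained the partner had a median ratio of -0.80 ± 0.44, and the 9 nested pairs of -4.50 ± 0.19. Partners of all 14 containing loci had a median count of 194 and those of all 62 nested loci 8956. The part of these partner levels in the ratios was not tested.

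**Figure D4:**
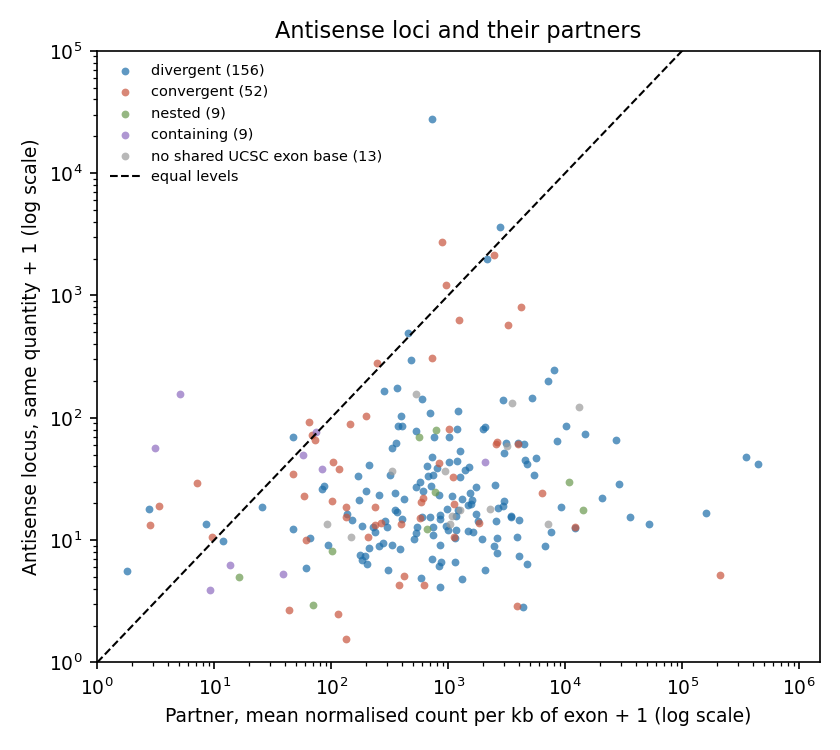
Mean normalised count per kb of exon of the partner (x axis) and of the antisense locus (y axis), both on log scales with 1 added, for 239 pairs coloured by arrangement, with a dashed line of equal levels. Most points lie below the line, and the lowest on the right belong to abundant heart muscle genes.

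Besides Ndufb1-ps, at a log2 ratio of 5.24 ± 0.29, and the locus beside Slc66a2, at 1.63 ± 0.14 (SD, n = 4), the highest ratios among pairs with both means of 10 or more belonged to antisense loci of genes that were low in these hearts. The locus at chr16:94943445-94970587 was convergent with Kcnj6, which encodes an inwardly rectifying potassium channel subunit. It had 117 (3RL), 161 (7LR), 555.9 (8R) and 149.8 (12RL), against 25.1, 9.11, 26.1 and 7.88 for Kcnj6, a ratio of 2.31 ± 0.87. The locus at chr9:121186233-121189148 matched Gm34655, ran divergently from Ulk4, and had 39.4, 25.1, 21.6 and 20.5 against 33.4, 63.8, 51.2 and 48.9 in the order 3RL, 7LR, 8R and 12RL. It was above Ulk4 per kb in all 4 libraries and below it in count in 3 of them, as the exons of Ulk4 have the greater total length. The locus at chr5:18732317-18795120, divergent from 4921504A21Rik, had a ratio of 0.56 ± 0.12 per kb of exon but -0.15 per kb of unshared exon, so its direction depended on the length used.

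Within the same set of pairs as for the highest ratios, the 5 lowest ratios all belonged to partners with very high counts. These were genes of heart muscle contraction and energy supply. A ratio contains the partner's own level, so abundant partners are favoured at this end. Outside that set, the log2 ratio per kb was -13.58 at Uqcrh and -13.31 at Epas1. Both of these antisense loci were at 0 with no unshared base. The locus at chr15:76827796-76846016 matched Gm49540 and was convergent with Mb, which encodes the oxygen-binding protein myoglobin. It had 5.97 (3RL), 27.3 (7LR), 6.82 (8R) and 20.5 (12RL), against a mean of 1354951 ± 141491 for Mb, a log2 ratio per kb of -15.48 ± 0.98 (SD, n = 4). The locus at chr5:122951805-122957161, divergent from the calcium pump gene Atp2a2, was at 169.5, 177, 194 and 241 in the same order, with a ratio of -13.39 ± 0.17. Divergent from Tpm1, which encodes a tropomyosin of the thin filament, the locus at chr9:66896922-66908715 was at 147, 121, 173 and 142, with a ratio of -12.86 ± 0.11. At Fabp3, the fatty acid binding protein gene of heart, the 4-exon locus chr4:129957729-129986116 was at 41.8, 55.8, 51.2 and 45.7, with a ratio of -11.91 ± 0.30. Per kb of unshared exon the ratios were -14.89 at Mb, -13.38 at Atp2a2, -12.87 at Tpm1 and -13.51 at Fabp3, so the order of these pairs depended on the length used. These 4 antisense loci held between 1255 and 4239 unshared bases.

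The remaining one, at chr14:55609665-55625234, lay opposite the merged locus of Myh6 and Myh7, the cardiac myosin heavy chain genes. It had 122 (3RL), 218 (7LR), 92.1 (8R) and 251 (12RL), a ratio of -13.32 ± 0.55 (SD, n = 4), but only 130 of its 10794 exon bases were unshared. Its start lay 16478 bases beyond the end of the UCSC-model locus matched to Mhrt on the same strand. Mhrt had 4148 (3RL), 5697 (7LR), 5189 (8R) and 6122 (12RL). At both, 12RL was the highest library and 7LR the next. The same held for the merged Myh6 and Myh7 locus, at 4389572 (3RL), 5176832 (7LR), 4854819 (8R) and 5309783 (12RL). A link between these loci was not tested.

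Named partners were also read by their known roles, in lists made after the values had been seen, and no test was run on them. A ratio contains the partner's own level, so a list of abundant partners has low ratios. Counts of loci past a mean of 10 in these lists stand against 43.9% of all antisense loci and 53.6% of all loci, and nothing particular to a list is read from them. Of 10 pairs with sarcomere and muscle cytoskeleton genes, 6 had an antisense mean of 10 or more (43.9% over all antisense loci), at a median log2 ratio per kb of -9.30, where the 239 pairs had -4.86. The locus divergent from Fhl2, which encodes a LIM protein of the sarcomere, had 340.2, 512, 433 and 664 in the order 3RL, 7LR, 8R and 12RL, against 185383 ± 16841 for Fhl2 (SD, n = 4). Beside the M-band gene Myom1 the divergent locus had 276, 269, 305 and 249. Loci opposite Xirp2 and Myh11 were at 0 with no unshared base.

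Of 12 pairs with ion channel and transporter genes, 8 reached a mean of 10, where 43.9% of all antisense loci did, with ratios from -13.39 to 2.31. The locus divergent from Itpr2, an intracellular calcium release channel gene, had 221, 301, 232 and 194 in the order 3RL, 7LR, 8R and 12RL, at a ratio of -3.85 ± 0.37 (SD, n = 4). The loci opposite the pacemaker channel genes Hcn2 and Hcn4 were low, with a mean of 13.0 ± 2.93 at Hcn2 and 1.53 ± 1.42 at Hcn4. The locus convergent with Kcnq1 was at 0 with no unshared base.

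Of 12 pairs with transcription factor genes, 8 reached a mean of 10, again beside 43.9% of all antisense loci, and Hand2os1 was the highest of them by count. The locus that contained Irx4, a ventricular homeobox gene, had 251 (3RL), 208 (7LR), 224 (8R) and 205 (12RL). Beside the thyroid hormone receptor gene Thrb the divergent locus had 78.8, 134, 160.3 and 166 in the same order, at a ratio of -3.08 ± 0.43 (SD, n = 4). At the clock gene Nr1d1 the antisense locus had 165, 117, 73.9 and 125, and Nr1d1 itself had 13096, 7279, 6128 and 9657. Both sides of that pair were highest in 3RL and lowest in 8R. Of the 130 pairs with both means of 50 or more, 36.2% shared their highest library.

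Of 12 pairs with signalling genes, 5 reached a mean of 10, near the share of 43.9% of all antisense loci. The 5-exon locus at chr1:188410926-188484813, convergent with the growth factor gene Tgfb2, had 3410.3 (3RL), 5047 (7LR), 4488 (8R) and 4571 (12RL), against 1214, 1028, 971 and 1071 for Tgfb2. Per kb its ratio was 0.16 ± 0.36 (SD, n = 4), higher in 3 of 4 libraries, a difference within the spread between libraries. Beside Fgf16, a fibroblast growth factor gene, the divergent locus had a mean of 155 ± 30.04. Of 12 pairs with genes of oxygen binding, fatty acid and energy metabolism, 5 reached a mean of 10 and 5 were at 0, where 43.9% and 31.5% of all antisense loci did, and the median ratio was -11.30. The locus divergent from Idh3b, a subunit gene of mitochondrial isocitrate dehydrogenase, had the most counts of these, with 174 (3RL), 295 (7LR), 233 (8R) and 213 (12RL).

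The antisense loci that shared the most exon bases with their partners had few or no counts. The longest overlap, 40647 bases, was with Pcdh1, a protocadherin gene, and that antisense locus was at 0 with 95 unshared bases. The locus opposite Rbm20, which encodes the splicing factor of titin, shared all of its 14933 exon bases and was at 0. Opposite Wdr26 and AU041133 the means were 2.35 and 0.285, with 32 and 37 unshared bases. Opposite Grk5, a kinase gene of G-protein-coupled receptors, the counts were 11.9 (3RL), 6.83 (7LR), 12.5 (8R) and 14.2 (12RL), with 181 of 20653 exon bases unshared. By UCSC models alone each of these 5 overlaps was 99 or 100 bases.

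Only 4 antisense loci had models of 10 or more exons. The locus at chr2:119867254-119905684, convergent with Pla2g4b and Jmjd7, had up to 57 exons and counts of 179 (3RL), 240.3 (7LR), 168 (8R) and 309 (12RL). It began 7022 bases beyond the end of Ehd4 on the same strand, a locus with a mean of 70668. The 31-exon locus at chr8:128949238-128998976 matched the protein-coding gene Tarbp1, was convergent with Coa6, an assembly factor gene of cytochrome c oxidase, and had 608, 789, 508 and 861 in the same order. The 14-exon locus at chr15:91016983-91092044 matched CN725425, had 321.1, 302, 366 and 266, and shared no exon base with a UCSC-model locus. The 10-exon locus at chr1:145924718-146128244 contained Rgs1 and had 696, 1109, 624 and 1391. Rgs1 itself was near 0, at 2.39, 4.56, 6.82 and 0 in the same order, below that locus in every library. The next, with 9 exons at chr3:149108007-149172672, ran divergently from Adgrl2 and had 450.0, 541, 439.96 and 525. In all, 113 of 666 antisense loci with a same-strand UCSC-model locus upstream began within 10000 bases of its end. Among them were 44 of 346 divergent, 41 of 167 convergent and 20 of 62 nested loci. No such share over other loci is given here, so nothing particular to antisense loci is read from it.

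Antisense loci varied more between libraries than their partners, at a much lower level. The median SD of log2(value + 1) over the 4 libraries was 0.32 for 293 antisense loci with a mean of 10 or more, 0.15 for 579 partners, 0.46 for 3665 other loci without a UCSC model and 0.19 for all 18912 loci. The median of the mean counts in these sets was 63.2, 4722, 24.6 and 864, so counting error differs between them, and its part in the spread was not tested. At a mean count of at least 50, the 161 antisense loci had a median CV of 18.3% and the partners of 9.86%. The 1012 other loci without a UCSC model past this mean had a median CV of 21.6%. A CV above 50% was found at 6 of the 161 antisense loci and at 82 of these 1012, where 1.38% of all loci had one. One library lay above the others by Dixon's criterion for 4 values, which sets the gap to the next value against the whole range, at 8 of the 161 and below them at 2, where all loci gave 3.15% and 1.45%.

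The loci with the largest CV each had 1 high library. The locus at chr12:24101595-24285273, with 199 exon bases and no partner, had 437.3 in 7LR and 0 in the other 3 libraries. Beside Lemd2, a gene of an inner nuclear membrane protein, the divergent locus had 48.9 (3RL), 46.7 (7LR), 85.3 (8R) and 339.0 (12RL). The locus at chr9:106788175-106789504 had 48.9, 72.9, 44.3 and 239.7 in the same order. The one beside Kcnj6 was highest in 8R, as given above, and the one divergent from Plekhn1 had 57.3, 63.8, 83.0 and 167. In these the high library was 12RL in 3, 7LR in 1 and 8R in 1.

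Over all 293 antisense loci, the highest library was 7LR at 83 (28.3%), 8R at 82 (28.0%), 12RL at 80 (27.3%) and 3RL at 48 (16.4%). Over all 18912 loci past the same minimum these shares were 21.6%, 34.3%, 20.7% and 23.3%. Over the 3665 other loci without a UCSC model they were 34.7%, 21.3%, 27.6% and 16.4%, so the low share of 3RL was not particular to antisense loci. The partners followed all loci more closely, with 37.0% highest in 8R.

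Promoters of divergent partners were rich in CG, about as much as those of all named loci with a mean of 10 or more, a set that holds partners too. RefSeq promoters of 300 bases (250 before and 50 after the start, GRCm38.p6) were found for 256 of 314 named divergent partners. The ratio of observed to expected CG had a median of 0.781 for them, 0.777 for 107 convergent partners, 0.69 for 43 nested partners, 0.742 for 10370 named loci with a mean of 10 or more, and 0.389 for all 27025 promoters. A ratio above 0.6 was found in 74.6%, 68.2%, 67.4%, 67.6% and 36.4% of these sets. The letters TATAAA, on either strand, were in 9.77% of divergent and 8.41% of convergent partner promoters, 7.49% of promoters of named loci with a mean of 10 or more and 14.2% of all. The letters GGGCGG, on either strand, which can overlap a CG count, were in 65.6%, 68.2%, 61.8% and 35.9%. The differences between divergent partners and all named loci past this mean were not tested. In the windows printed above, the CG lie along the whole stretch at Cpsf2 and Ulk4 and mostly in the later part at Hand2. The ratio of observed to expected CG ran from 0.708 (Fabp3) to 0.904 (Cpsf2) at the 5 partners printed. Of the ranked divergent partners not printed, 4921504A21Rik had 0.89 and Wdr26 0.791. Adgrl2 had 0.421, Plekhn1 0.213 and Myh6 0.083.

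**Figure D5:**
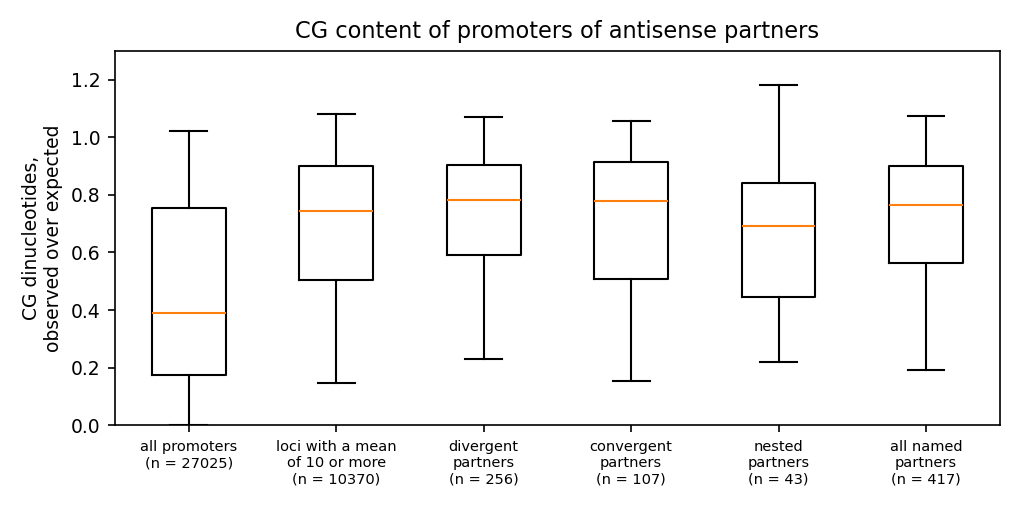
Observed over expected CG dinucleotides (y axis) in RefSeq promoters of 300 bases for 6 sets of genes (x axis), with the median (line), the quartiles (box) and the 5th and 95th percentiles (whiskers). The boxes of divergent and convergent partners sit beside that of all named loci with a mean of 10 or more, with medians of 0.781, 0.777 and 0.742, above the median of 0.389 of all promoters.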

How the data were processed

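Antisense loci were taken from the deposited transcript models (exon positions on mm9, 1-based, pooled over the series) and joined to the count table by locus. The authors' table holds a signal per locus, read counts divided by 1 size factor per library. Division of each column by its smallest step gave whole reads, within 0.001, for 100% of values. With 1 group there is no comparison for a count test. Per the submitters' processing notes, TopHat2 2.0.5, Cufflinks 2.0.2, HTSeq 0.5.4p2, DESeq and mm9 were used. The sources used here give neither strandedness, counting mode, the libraries that were assembled nor a map from columns to replicates. The members and all lists were chosen with earlier results of these data known.

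Exon unions, overlaps and unshared bases were computed per locus. Ratios used log2(value per kb + 1), which understates differences of low loci, in each library, with exact sign-flip tests over the 4 libraries. Loci were named by 7 rankings of 5 (count, count per kb, highest and lowest ratio among pairs with both means of 10 or more, overlap, exons, and CV at a mean of 50 or more), 28 loci in all. Loci outside them were named after their values were seen. Gene names came from matches of transcripts with at least 2 introns, and 17404 of 26078 UCSC-model loci matched (66.7%). Matches of 1 intron counted only within 10000 bases of the pair's other match. Steps were tested on simulated data. Alternatives were other pseudocounts, minimum means, lengths, partners and scalings, and leaving out each library. Work was done with pandas 2.3.3, scipy 1.17.1 and numpy 2.4.6 in Python 3.11.15, and edgeR 4.0.16 in R 4.3.3 gave the TMM scaling, an alternative only.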

Additional observations from a re-analysis of the deposited data

Results flagged for a closer look

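At 4 of the antisense loci ranked by CV a single library was well apart from the rest. By chance about 1 in 20 groups would be picked out this way, and the ranking used the same values. At chr16:94943445-94970587, beside Kcnj6, 8R had 555.9 normalised counts and the next library 161. At chr12:24101595-24285273, 7LR had 437.3 and the others 0. At chr17:27340605-27346196, beside Lemd2, 12RL had 339.0 and the next library 85.3. At chr9:106788175-106789504, 12RL had 239.7 and the next library 72.9.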

How the results depend on the processing

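Of 38 alternatives, 35 kept the direction and side of the threshold or moved a value by less than its spread or by less than 1.5 times. The share of antisense loci past the minimum mean was 61.92% at a mean of 1 and 24.14% at 50, against 43.93% at 10, by construction. The share of pairs sharing 100 exon bases or fewer was 27.42% with all models of the partner locus, an alternative added after seeing the data, against 87.97% with its UCSC models. The median log2 ratio was -4.98 with a pseudocount of 0.1, -4.33 with 10, -5.62 without division by length, -4.94 for loci with a single opposite UCSC-model locus, -4.83 (added after seeing the data) for loci whose partner is the same by UCSC exons alone, and -7.21 with no minimum, which lets in loci at 0. Leaving out each library in turn gave shares of 43.48% to 44.38%, ratios of -4.893 to -4.832 (exact permutation test, p = 0.25, the smallest that 3 libraries allow), 14 to 15 pairs with the antisense locus higher, and a median SD of 0.299 to 0.306, against 0.324. The share highest in 7LR was 37.2% with equal table totals and 29.4% with TMM scaling, against 28.3%, and 34.1% to 42.3% with 1 other library removed, where fewer libraries compete. The last 2 sets of left-out libraries were added after seeing the data for the pair counts and the highest library. No paired analysis was possible because the design holds a single group. No alternative varied depth, so its part was not tested, and levels near a mean of 10 rest on few reads.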
